A study of Mus musculus with 6 samples.

Results

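The genes described here are 42 mouse genes that make, activate and burn fatty acids, out of 55401 genes in the expression table. They were chosen by name from the known pathway: 16 genes of fatty acid synthesis, desaturation and elongation, 4 acyl-CoA synthetases that activate fatty acids, 19 genes of mitochondrial β-oxidation, and the 3 PPAR nuclear receptors. The rule uses no measured value, but earlier results of these data were known when the genes were listed. All 42 were found in the table. Of these, 37 averaged at least 1 FPKM across the libraries and were tested, and 5 (Elovl7, Cpt1b, Cpt1c, Ppara and Pparg) were below that level and are given by their values only. FPKM is the number of sequenced fragments of a gene scaled to its exon length and to the mapped fragments of the library. It allows an approximate comparison of levels between genes and between libraries, whose summed FPKM ran from 317332 to 320754. The filter fell in a wide gap, since the lowest member tested, Acss2, had a mean of 1.11 FPKM and the highest member not tested, Cpt1b, had 0.0433 FPKM.

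The libraries were made from mRNA of mouse cultures labelled as female germline stem cells (FGSCs) of the strain C57BL/6, at more than 20 passages. All cultures, controls included, grew on mitotically inactivated STO feeder cells, a mouse embryonic fibroblast line, in serum with LIF, EGF, bFGF and GDNF. Control cultures received no metformin (n = 3) and treated cultures received 1 μM metformin for 24 h (n = 3). The cells are described as an established line, and the study calls the libraries of a group repeats without saying whether they came from separate cultures, so the p-values measure the spread between these libraries, which may be technical.

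The label was checked against marker genes. Of 6 germ cell markers none reached a mean of 1 FPKM, Dazl, Dppa3 and Pou5f1 were listed at 0 in all 6 libraries, and the most abundant was Ifitm3 at 0.662 FPKM. All 8 blood cell markers were above 1 FPKM, led by Coro1a at 139 FPKM. Of 6 mast cell markers 2 were, Cpa3 at 352 FPKM and Kit at 118 FPKM, while the mast cell genes Fcer1a and Tpsb2 were listed at 0. None of 10 fibroblast markers reached 1 FPKM (summed level 0.52 to 0.84 FPKM), and neither did any marker of granulosa cells, adipocytes, hepatocytes or muscle. In the RNA of these 6 libraries the markers thus went against the germ cell label, and the cells are called cultures labelled FGSCs below. Depth, estimated from the step that 1 fragment makes in short genes, was 13400000 to 14000000 fragments per library. At that depth 3 fragments on 1 kb of exon equal 0.214 to 0.224 FPKM, which was taken as the limit of detection and covers counting error only. This 1 limit was used for genes of every length, although 3 fragments give a lower FPKM on a gene with more than 1 kb of exon.

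Fatty acids are built in the cytosol. Citrate exported from mitochondria is cleaved to acetyl-CoA, acetyl-CoA carboxylase turns it into malonyl-CoA, fatty acid synthase assembles palmitate, and elongases and desaturases then lengthen and bend the chain. For oxidation the chain is joined to CoA, moved into mitochondria as a carnitine ester, and shortened in cycles by a dehydrogenase, a hydratase, a second dehydrogenase and a thiolase. Malonyl-CoA, the product of the first committed step of synthesis, blocks the carnitine palmitoyltransferase that opens oxidation. Metformin is best known as an inhibitor of respiratory complex I that raises AMPK activity, and AMPK phosphorylates acetyl-CoA carboxylase, which is a change in protein and not in mRNA. The comparison asked whether the mRNAs of these enzymes differed after metformin.

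Before the values, a stretch of DNA is shown because it shows how a pair of these genes is arranged. Hadha and Hadhb encode the α and β subunits of the mitochondrial trifunctional protein and lie head to head on chromosome 5, with Hadha on the minus strand (30118304 to 30155162) and Hadhb on the plus strand (30155248 to 30184593). Only 85 bases separate the ends of the genes as the table gives them. The stretch, from RefSeq promoter sequence of GRCm38.p6 at chr5:30155163-30155247 on the plus strand, is 69.4% G and C. Its capitals mark 2 matches to the GC box letters GGGCGG:
Hadha and Hadhb: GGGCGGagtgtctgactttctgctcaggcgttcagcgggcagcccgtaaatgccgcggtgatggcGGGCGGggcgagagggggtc
RefSeq held promoters for 36 of the 42 genes, as windows from 250 bases before to 50 bases after each of 44 starts. The GC box stood in 31 of these 44 windows on either strand (27 of the 36 genes), and in 35.7% of all 32851 promoter windows. The CCAAT box stood in 21 of the 44 windows (19 genes), and in 37.4% of all windows. The letters of the sterol regulatory element stood in 1 of the 44 windows (Acsl1), and in 1.24% of all windows. All promoter windows include those of genes not expressed here. The share over promoters of expressed genes was not computed, so the GC box and CCAAT box shares are not shown to be particular to fatty acid genes. These shares count the letters in the windows and say nothing of sites elsewhere. A match is a description of the letters and was not measured here as a binding site.

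The levels of the synthesis genes were spread widely. Scd2, a stearoyl-CoA desaturase that puts the first double bond into saturated chains, was the most abundant, with 358.03 to 375.69 FPKM over the 6 libraries, higher than 99.1% of the genes tested. It made 46.6% to 47.6% of the summed FPKM of the 16 synthesis genes. Its neighbour and close relative Scd1, the main form of liver and fat, had 1.44 to 1.96 FPKM, or 0.396% to 0.525% of the pair. Fragments shared between these close paralogs could have been assigned to either by the counting, so the level of Scd1 is uncertain.

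Next came Fads2, the desaturase that opens polyunsaturated fatty acid synthesis, at a mean of 90.7 FPKM, and Acly, which cleaves citrate to acetyl-CoA, at 86.8 FPKM. Their ranges over the 6 libraries overlapped, so their order was not resolved. Elovl1, an elongase of very long saturated chains, had 58.3 FPKM and Fasn, the fatty acid synthase, 55.5 FPKM, again with overlapping ranges. Elovl5, which lengthens polyunsaturated chains, followed at 38.3 FPKM. Elovl6, which lengthens palmitate, had 20.6 FPKM, the transcription factor Srebf1 had 19.4 FPKM, and Fads1, the later desaturase of polyunsaturated chains, had 18.8 FPKM, and these neighbours in the order overlapped. Mcat (9.8 FPKM) and Oxsm (5.93 FPKM), enzymes of the separate mitochondrial synthesis that supplies lipoic acid, were lower. The 2 acetyl-CoA carboxylases were lower still, with 3.63 FPKM for Acaca, the cytosolic form that feeds synthesis, and 2.85 FPKM for Acacb, the form at the mitochondrial surface. Acss2, which makes acetyl-CoA from acetate, had 1.11 FPKM, so Acly was 74.5 to 86 times as high per length in each library. The span of Acss2 overlaps that of Gss on the opposite strand by 22544 bases (Gss at 4.15 FPKM), so the level of Acss2 is uncertain if the counting ignored strand. Elovl7 was at 0.05 and 0.02 FPKM in 1 library each and at 0 in the others, below the limit of detection.

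Of the activating enzymes, Acsl5, an acyl-CoA synthetase of mitochondria and endoplasmic reticulum, led with 45.4 FPKM and 44.5% to 47.4% of the summed level of the 4. Acsl4, which prefers arachidonic and other polyunsaturated acids, had 25.3 FPKM, Acsl3, known from lipid droplets, 21.8 FPKM, and Acsl1 5.6 FPKM. No neighbours in this order overlapped over the 6 libraries. The span of Acsl5 overlaps that of Zdhhc6 on the opposite strand by 26430 bases (Zdhhc6 at 12.7 FPKM), so its share is uncertain if the counting ignored strand.

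Among the oxidation genes, the carnitine step was carried by Cpt1a, the liver form of the outer carnitine palmitoyltransferase, at 19.1 FPKM and 99.2% to 100% of the 3 Cpt1 genes. Cpt1b, the muscle form, had 0 to 0.08 FPKM. Cpt1c, the brain form, had 0.08, 0.03 and 0.08 FPKM in the control libraries and 0.01, 0 and 0 FPKM in the metformin libraries. All were below the limit of detection set for 1 kb of exon, so no fold is given. Cpt2, the inner transferase, had 18 FPKM, close to Cpt1a. The translocase between them, Slc25a20, had 3.92 FPKM and was, with Decr1, among the lowest detected genes of oxidation.

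The acyl-CoA dehydrogenases, each for a range of chain lengths, were unequal. Acadl, for long chains, had 93.2 FPKM and made 50.4% to 52.2% of the summed level of the 4. Acads, for short chains, had 40.3 FPKM, Acadvl, for very long chains, 35.8 FPKM, and Acadm, for medium chains, 11.7 FPKM. In the later steps Hadha had 37.8 FPKM and its partner Hadhb 12.9 FPKM. The ratio of Hadha to Hadhb was 2.75 to 3.12 in the 6 libraries although the subunits are built into one complex and the genes share the short stretch shown above. Hadh, the dehydrogenase of shorter hydroxyacyl chains, had 31.8 FPKM and Echs1, the matching hydratase, 6.49 FPKM. Of the enzymes needed for unsaturated chains, the isomerases Eci2 and Eci1 had 10.9 and 9.97 FPKM, and the dienoyl-CoA reductase Decr1 had 3.46 FPKM. The electron transfer flavoprotein, which takes electrons from the dehydrogenases, also had unequal subunits, with 51.3 FPKM for Etfa and 20.2 FPKM for Etfb, and Etfdh, which passes them to ubiquinone, had 8.95 FPKM.

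Of the nuclear receptors that control these genes in other tissues, only Ppard was above the limit of detection, at 5.11 FPKM. Ppara was listed at 0 in all 6 libraries, and Pparg had 0.12 FPKM in control library 3, 0.02 FPKM in metformin library 1 and 0 in the others.

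**Figure D1:**
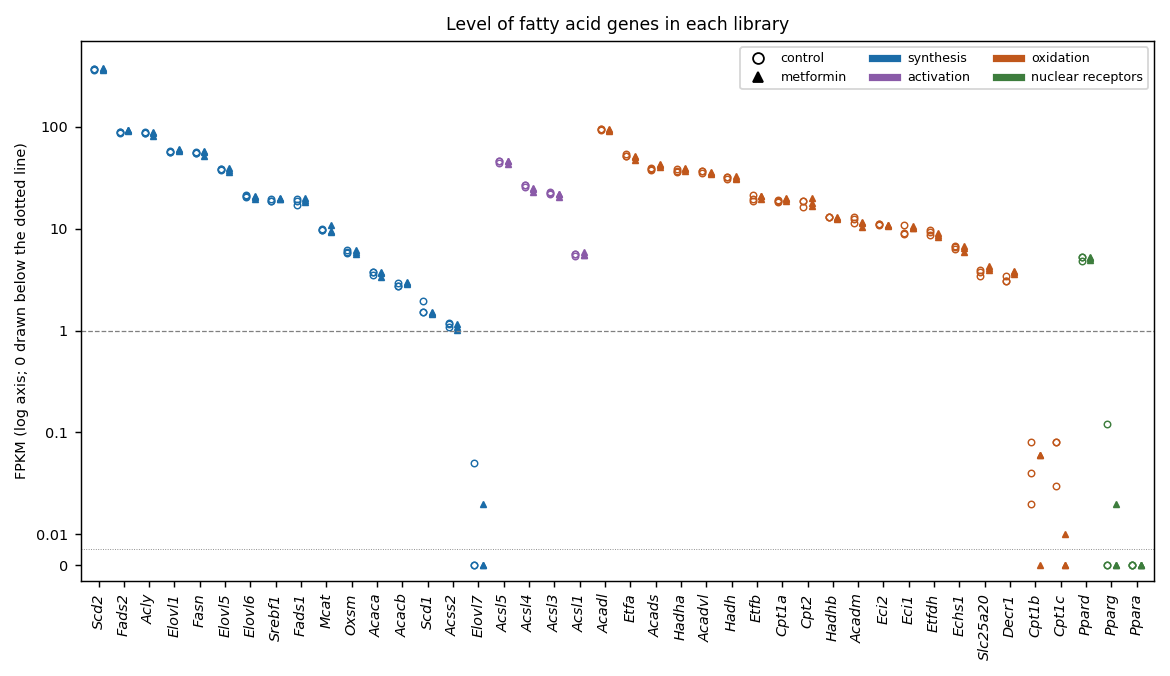
Level in FPKM (log axis, with 0 drawn below the dotted line) of each of the 42 genes in each library, with circles for 3 control and triangles for 3 metformin libraries and colours for the role. Scd2 and Acadl lead synthesis and oxidation, circles and triangles lie close together for the genes above the dashed line at 1 FPKM, and 5 genes lie below it.

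After metformin no fatty acid gene passed the test, and the differences were small. On log2(FPKM + 1), 17 of the 37 genes were higher and 20 lower in the metformin libraries, and the differences ranged from -0.12 for Acsl4 to 0.18 for Decr1 with a median of -0.0049. The median over all 10661 genes tested was 0.0041, with 5580 higher and 5081 lower. With limma, two-sided and Benjamini-Hochberg adjusted over all genes tested, 0 of the 37 had an adjusted p under 0.05, where 3 genes or 0.0281% of all tested did, and the lowest adjusted p of the 37 was 0.35, for Fads2. At an unadjusted p under 0.05 there were 4 (Fads2, Acsl4, Acads and Decr1), near the 10.8% of all genes that passed that limit. In none of 16 alternative settings did a fatty acid gene have an adjusted p under 0.05.

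The intervals were narrow. The 95% confidence interval of the difference lay within 1.2-fold in either direction for 35 of the 37 genes, and for 77.2% of all genes tested. The exceptions were Scd1 and Decr1, and for all 37 the interval lay within 1.5-fold, with bounds from -0.31 (Scd1) to 0.32 (Decr1). These folds are on the log2(FPKM + 1) scale, which understates the change of low genes such as Scd1, Acss2, Decr1 and Acacb.

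By role, 7 of the 15 tested synthesis genes were higher and 8 lower, with a median of -0.0043. Without metformin library 1 that median was 0.0222. Of the 4 activation genes 1 was higher and 3 lower, with a median of -0.042. Of the 17 tested oxidation genes 8 were higher and 9 lower, with a median of -0.0049, and leaving out any of the 6 libraries gave medians from -0.024 to 0.0049. The medians of synthesis and oxidation were nearly equal, and the difference between them was not tested because the genes were chosen with earlier results known.

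**Figure D2:**
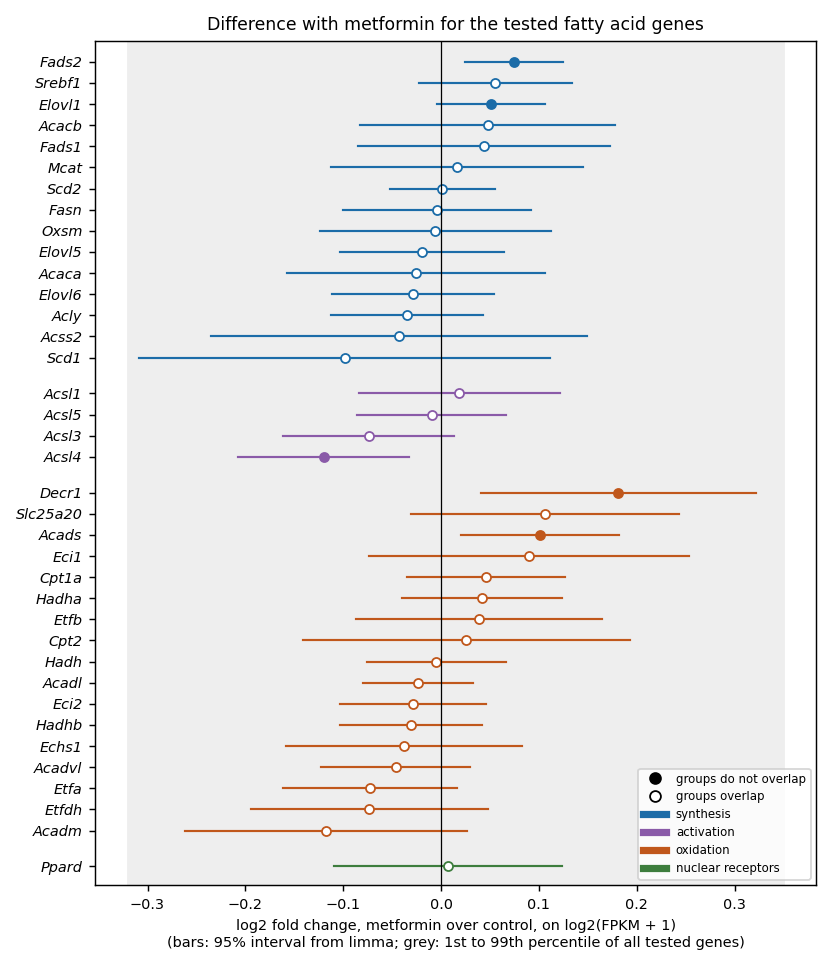
Difference metformin minus control in log2(FPKM + 1) for the 37 tested genes, with 95% confidence intervals from limma, colours for the role, filled points where the groups do not overlap and a grey band for the 1st to 99th percentile of all genes tested (-0.32 to 0.35). The differences run from -0.12 for Acsl4 to 0.18 for Decr1, and the intervals of 4 genes (Fads2, Acsl4, Acads and Decr1) do not reach 0, with no adjusted p under 0.05.

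In 5 of the 37 genes the libraries of the groups did not overlap. All 3 metformin libraries lay above all 3 controls for Fads2, Elovl1, Acads and Decr1, as for 8.89% of all genes tested, and below for Acsl4, as for 8.10%. After the libraries were rescaled to the same sum of FPKM, 4 genes were above and 4 below (Acsl3, Hadhb and Eci2 joined Acsl4), while 865 of all tested genes were above and 960 below, against 948 and 864 as deposited. For each of the 5 genes the exact two-sided permutation test gave p = 0.1, the smallest that 3 libraries against 3 allow.

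Fads2 (ENSMUSG00000024665, chromosome 19, 10062765 to 10101746, minus strand, GRCm38) had 88.03, 87.36 and 89.59 FPKM in the control libraries and 93.48, 93.85 and 91.82 FPKM with metformin. The lowest metformin library was above the highest control library. The means were 88.3 ± 1.14 and 93.0 ± 1.08 FPKM (SD, n = 3 each), a log2 difference of 0.074 (SE 0.021, 95% interval 0.025 to 0.12) with a limma adjusted p of 0.35, which was 0.242 to 0.549 over the alternatives. Its partner Fads1, the later step of the same pathway, had 18.5 ± 1.15 and 19.1 ± 1.02 FPKM (SD, n = 3 each) with overlapping groups, and the ratio of Fads2 to Fads1 overlapped between the groups (4.5 to 5.18).

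Elovl1 (chromosome 4, 118428093 to 118432953, plus strand) had 58.15, 56.79 and 56.95 FPKM in controls and 60.38, 58.44 and 59.37 FPKM with metformin. The lowest metformin library was just above the highest control library. The log2 difference was 0.051 (SE 0.024, 95% interval -0.0044 to 0.11), with a limma adjusted p of 0.489, and 0.39 to 0.673 over the alternatives. The gene overlaps Cdc20 on the opposite strand by 53 bases. Cdc20 had 133 ± 5.14 FPKM in control and 133 ± 3.96 FPKM in metformin libraries (SD, n = 3 each), and whether the counting used strand is not given in the sources used here.

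Acsl4 (chromosome X, 142317993 to 142390535, minus strand), the activating enzyme of polyunsaturated acids, had 26.82, 25.64 and 26.65 FPKM in controls and 23.06, 24.88 and 24.64 FPKM with metformin. Metformin library 1 was the lowest and every metformin library was below the controls. The means were 26.4 ± 0.638 and 24.2 ± 0.989 FPKM (SD, n = 3 each), a log2 difference of -0.12 (SE 0.037, 95% interval -0.21 to -0.032) with a limma adjusted p of 0.367, and 0.251 to 0.546 over the alternatives. Acsl3 had 22.82, 22.62 and 21.8 FPKM in controls and 21.8, 20.27 and 21.67 FPKM with metformin, so the groups met at 21.8 FPKM. Part of Acsl3 overlaps Utp14b on the same strand (13475 bases, Utp14b at 5.89 FPKM). Acsl5 differed by -0.0096 (95% interval -0.086 to 0.067) and Acsl1 by 0.019 (-0.084 to 0.12).

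Acads (chromosome 5, 115110299 to 115119346, minus strand), the short-chain dehydrogenase, had 38.04, 39.57 and 38.99 FPKM in controls and 39.91, 43.02 and 42.37 FPKM with metformin. Metformin library 1 was close to the controls and the other metformin libraries were further above. The means were 38.9 ± 0.772 and 41.8 ± 1.64 FPKM (SD, n = 3 each), a log2 difference of 0.10 (SE 0.034, 95% interval 0.020 to 0.18) with a limma adjusted p of 0.39, and 0.266 to 0.59 over the alternatives. Acadm, the medium-chain enzyme, had 11.31, 12.95 and 12.39 FPKM in controls and 11.38, 10.39 and 11.76 FPKM with metformin, with overlapping groups and a log2 difference of -0.12 (95% interval -0.26 to 0.026). Acadl differed by -0.024 (-0.080 to 0.033) and Acadvl by -0.047 (-0.12 to 0.030).

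Decr1 (chromosome 4, 15917240 to 15945507, minus strand), which lets polyunsaturated chains through β-oxidation, had 3.06, 3.05 and 3.45 FPKM in controls and 3.62, 3.87 and 3.74 FPKM with metformin. Control library 3 was closer to the metformin libraries than to the other controls. The ratio of the means, 3.74 ± 0.125 over 3.19 ± 0.228 FPKM (SD, n = 3 each), was 1.17. The log2 difference was 0.18 (SE 0.060, 95% interval 0.041 to 0.32) with a limma adjusted p of 0.379, and 0.384 to 0.614 over the alternatives.

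The enzymes that open each pathway overlapped between the groups. Acly had 81.63 FPKM in metformin library 1 and 86.85 to 88.77 FPKM in the other libraries, a log2 difference of -0.035 (95% interval -0.11 to 0.043). Fasn likewise had 51.94 FPKM in metformin library 1 and 54.9 to 57.81 FPKM in the others, a difference of -0.0043 (-0.10 to 0.091). Acaca differed by -0.026 (-0.16 to 0.11) and Acacb by 0.048 (-0.083 to 0.18). For oxidation, Cpt1a had 18.37, 18.84 and 18.99 FPKM in controls and 18.65, 19.96 and 19.53 FPKM with metformin, a difference of 0.046 (-0.035 to 0.13). Srebf1, which drives synthesis genes, differed by 0.055 (-0.022 to 0.13), and Ppard by 0.0069 (-0.11 to 0.12).

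The balance between partner genes was described by ratios within each library, with pairs formed by shared function after the values were known. The ratio of Acsl5 to Acsl4 was 1.65, 1.8 and 1.73 in controls and 1.89, 1.84 and 1.88 with metformin. The ratio of Acads to Acadm was 3.36, 3.06 and 3.15 in controls and 3.51, 4.14 and 3.6 with metformin. The ratio of Scd2 to Scd1 was 244, 189 and 239 in controls and 249, 252 and 246 with metformin. In these 3 pairs of 9 the groups did not overlap, and each had an exact two-sided permutation p of 0.1, the smallest possible. The share over other gene pairs was not computed, and the first 2 ratios hold Acsl4 and Acads, whose own levels did not overlap. The size of the difference in the ratio of Scd2 to Scd1 owes most to control library 2, where Scd1 had 1.96 FPKM against 1.52 FPKM in the other controls, which with ratios of 244 and 239 were closer to the metformin libraries. In the other 6 pairs the groups overlapped. Hadha to Hadhb was 2.85 ± 0.0964 in controls and 3.01 ± 0.134 with metformin, Etfa to Etfb was 2.64 ± 0.114 and 2.44 ± 0.188, and Acaca to Acacb was 1.32 ± 0.0798 and 1.23 ± 0.0809 (SD, n = 3 each).

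**Figure D3:**
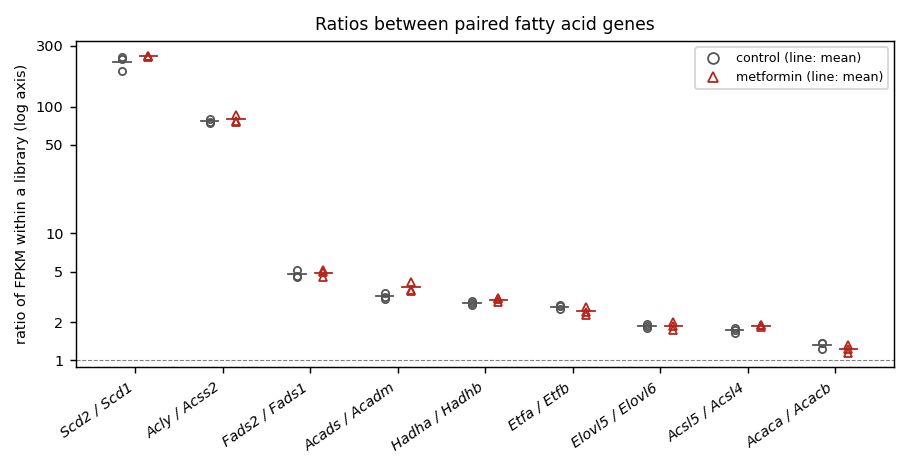
Ratio of FPKM between 9 pairs of partner genes in each library, on a log axis, with circles for 3 control and triangles for 3 metformin libraries and lines for the group means. The triangles lie above all circles for Scd2 to Scd1, Acads to Acadm and Acsl5 to Acsl4, and the groups overlap in the other 6 pairs.

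Picked out for this remark after all values had been seen, metformin library 1 stood at the low or the high end of the range in most synthesis genes. It held the lowest value of the 6 libraries for 7 of the 15 synthesis genes (Acly, Acaca, Fasn, Scd1, Scd2, Elovl6 and Oxsm), or 46.7%, where it held the lowest value for 18.6% of all genes tested. It also held the highest value for 4 of the 15 (Srebf1, Elovl1, Elovl5 and Mcat), or 26.7%, against 20.3% of all genes tested. For oxidation it was lowest in 3 of 17 genes. The median deviation of the synthesis genes from their control means, in log2(FPKM + 1), was -0.038 in that library and 0.020 and 0.019 in the other metformin libraries. The same library was lowest for 7 of 18 tested genes of sterol synthesis and its control, among them Insig1, Lss, Cyp51 and Stard4. Its depth, 14000000 fragments, and its summed FPKM, 320754, were at the upper end of the 6 libraries.

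Summed over the 15 tested synthesis genes, the libraries held 783, 780 and 775 FPKM in controls and 768, 792 and 793 FPKM with metformin. Summed over the 17 tested oxidation genes they held 412, 418 and 418 FPKM in controls and 411, 415 and 420 FPKM with metformin. The groups overlapped in both sums. The 4 activation genes summed to 99.5, 100 and 100 FPKM in controls and 93.9, 96.4 and 98.5 FPKM with metformin, which did not overlap. This sum holds Acsl4, whose own level did not overlap, and was chosen for this remark after it was seen. Among single genes, 8.10% of all tested were below every control in every metformin library. The share over comparable sums was not computed. With untested genes included, the synthesis sum without Scd2 was 97.8% to 101% of the oxidation sum in every library.

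Of the markers of other cell types, the summed mast cell markers were 474 to 505 FPKM in controls and 450 to 465 FPKM with metformin, without overlap (Cpa3 was below every control library in every metformin library, and Kit overlapped), and the summed blood cell markers were 541 to 544 and 542 to 558 FPKM. Of the 8 blood cell markers Laptm5, Coro1a and Vav1 were above every control library in every metformin library, and Ptprc and Lcp1 were below. All metformin libraries lay above all controls for 8.89% of all genes tested, and below for 8.10%. No tested marker had a limma adjusted p under 0.05, with 0.346 for Vav1 and 0.369 for Cpa3. In bulk RNA fewer cells of a type and less RNA per cell cannot be told apart, and the part of these markers in the differences above was not tested.

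**Figure D4:**
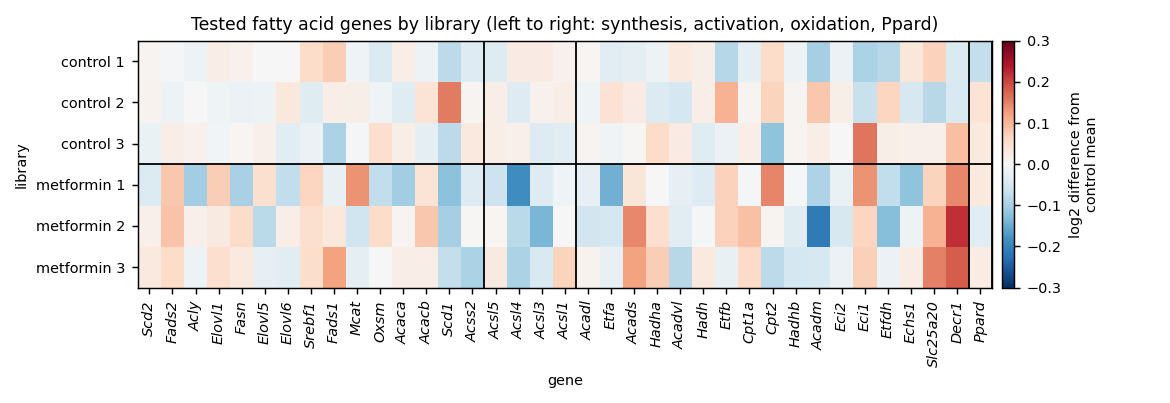
Heat map of the deviation from the control mean in log2(FPKM + 1), red above and blue below, of each tested fatty acid gene (columns, ordered by role and level) in each library (rows). The synthesis genes have a median of -0.038 in metformin library 1 and of 0.020 and 0.019 in metformin libraries 2 and 3.

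The surrounding lipid pathways held no adjusted call either. In 7 related lists, 113 of 115 genes were in the table (Hmgcs1 and Hsd17b8 were not matched) and 84 were tested. Of these 51 were higher and 33 lower with metformin, with a median of 0.015, and 0 had a limma adjusted p under 0.05. At an unadjusted p under 0.05 there were 8, in 8 the metformin libraries were all above the controls, and in 6 all below. The background shares are the 10.8%, 8.89% and 8.10% given above.

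Of 18 tested genes of sterol synthesis and SREBP control, 9 were higher and 9 lower. Stard4, a sterol carrier, had 42.79, 44.93 and 43.14 FPKM in controls and 39.13, 40.14 and 40.28 FPKM with metformin, below every control, with a log2 difference of -0.13 and a limma adjusted p of 0.32 (0.204 to 0.478 over the alternatives). Mvd, a mevalonate pathway decarboxylase, had a difference in the other direction, 0.11, with an adjusted p of 0.392 (0.273 to 0.601). These sterol genes thus stood apart from the controls in opposite directions, with no adjusted p under 0.05.

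The PPAR list held 17 genes, namely PPAR targets, the coactivators Ppargc1a and Ppargc1b, and the partner receptors Rxra and Rxrb. Of these 17, 8 were tested, 4 higher and 4 lower. Ucp2, an uncoupling protein relative of the mitochondrial inner membrane, had 41.29, 40.5 and 40.88 FPKM in controls and 46.18, 43.62 and 42.83 FPKM with metformin, all above the controls, with a log2 difference of 0.11 and a limma adjusted p of 0.357 (0.24 to 0.549). Rxrb, a receptor that pairs with PPARs, had 0.061 with overlapping groups, and 0.038 without control library 1. Most of the tissue-typical targets were below the filter, and Pdk4, the kinase that turns down pyruvate oxidation, was listed at 0 in all 6 libraries.

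The list of other mitochondrial oxidation also holds genes of branched-chain amino acid and propionate breakdown. In it 10 of 14 tested genes were higher, against 52.3% of all genes tested. The smallest p belonged to the thiolase Acaa2 (0.084, adjusted p = 0.423 with limma). Acad9, a dehydrogenase that also helps assemble complex I, was lower (-0.083, adjusted p = 0.47 with limma). The median of these 14 was 0.038, and 0.0052 without metformin library 1, 0.011 without control library 3 and 0.014 without control library 2. In peroxisomal oxidation 10 of 12 were higher with a median of 0.036, which was 0.070 without control library 1 and 0.057 without metformin library 2. None of those 12 had an unadjusted p under 0.05 with limma, and none an adjusted p under 0.05. The peroxisomal transporter Abcd3 was below every control with metformin (-0.062) and the racemase Amacr had 0.17 with overlapping groups, and 0.095 without control library 1.

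Among the 10 tested genes of other elongation, desaturation and precursor supply, 6 were higher. Slc25a1, the citrate carrier that feeds Acly, had 81.22, 83.39 and 83.31 FPKM in controls and 86.13, 85.25 and 86.81 FPKM with metformin, all above the controls, with a log2 difference of 0.058 and a limma adjusted p of 0.412 (0.322 to 0.619). Hacd3, a dehydratase of the elongation cycle, had 0.087 and an adjusted p of 0.387 with limma. Of 9 tested genes of mitochondrial fatty acid synthesis and lipoic acid 4 were higher and 5 lower, with Dlat, the lipoylated subunit of pyruvate dehydrogenase, at -0.079 and the reductase Mecr at 0.072, which was 0.043 without control library 1. Of 13 tested genes of glyceride synthesis and lipolysis 8 were higher, with the acyltransferase Agpat3 at 0.13 and the droplet protein Plin3 at 0.11, and neither had a limma adjusted p under 0.05.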

How the data were processed

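The authors deposited 1 table of FPKM values to 2 decimals for 55401 Ensembl genes in 6 libraries, which include their mapping, counting and scaling for length and depth. The submitters' processing notes name HISAT2, DESeq2 and mm9 without saying what each did. The positions of all 42 genes overlap those of RefSeq GRCm38.p6, so the table's coordinates are given as GRCm38. The labels name the KAPA Stranded mRNA-Seq kit and the study's methods another kit, and the strand setting of the counting is not given in the sources used here. Other members also overlap expressed genes on the opposite strand, among them Mcat with Tspo (196 bases, Tspo at 47.1 FPKM) and Acadvl with Dvl2 (2119 bases, Dvl2 at 5 FPKM). The effect of these overlaps on the levels was not tested. Symbols were matched by Ensembl identifier for 32589 genes.

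The 10661 genes that averaged at least 1 FPKM were tested as log2(FPKM + 1), a pseudocount of 1, with limma 3.58.1 in R 4.3.3 (lmFit, then eBayes with a mean trend; two-sided), Benjamini-Hochberg adjusted over all genes tested, at a threshold of 0.05. FPKM are not counts, so no count model was run. Single values were compared by exact two-sided permutation of 3 libraries against 3, which cannot go below p = 0.1. Depth was estimated from single-exon genes under 400 bp. All 42 genes are named, with values in every library for those with an unadjusted p under 0.05 or no overlap between the groups; from each related list the 2 genes with the smallest p are named, and other genes and ratios were chosen once their values had been seen. The members and lists were chosen with earlier results of these data known. Alternatives were other pseudocounts, filters, scalings, variance models, a replicate block and leaving out each library. All columns of the table were used. Some items are not reported here.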

Additional observations from a re-analysis of the deposited data

How the results depend on the processing

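Over 16 alternatives no fatty acid gene and no gene of the 7 related lists had a limma adjusted p under 0.05, and the 5 fatty acid genes without overlap kept their direction in every alternative in which they were tested. The lowest adjusted p of any fatty acid gene was 0.242 to 0.522. Of the 37, 17 were higher with metformin, against 21 without metformin library 1 and 14 without metformin library 3. Without a filter (22809 genes) 7 genes in all passed against 3, and the peroxisomal median was 0.019. At a mean of at least 10 FPKM fewer genes were tested, and Decr1 was not. The medians were then -0.074 for activation, 0.052 for the PPAR list, 0.021 for other mitochondrial oxidation and 0.061 for other elongation genes. Leaving out 1 library gave medians of -0.013 to 0.022 for synthesis, -0.024 to 0.0049 for oxidation, -0.058 to -0.030 for activation, -0.028 to 0.015 for sterol genes (lowest without metformin library 2), 0.0052 to 0.041 for other mitochondrial oxidation and 0.024 to 0.070 for peroxisomal oxidation. The cause of these shifts was not tested. The labels do not say whether libraries with the same repeat number were made together. Deviations of libraries with the same number correlated at -0.032 to 0.048, and those with different numbers at -0.050 to 0.030. These correlations cannot show whether the libraries were paired. With the number as a replicate block 2 genes in all and 0 fatty acid genes passed, and the 5 genes had adjusted p values of 0.466 to 0.545. With 3 libraries a group, these limits are those of the spread between libraries, and depth limits the genes near the limit of detection.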

Other observations

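Among the related genes, several typical of fat were at or near 0. The fatty acid uptake protein Cd36 had at most 0.02 FPKM and the adipocyte binding protein Fabp4 at most 0.03 FPKM, while the epidermal relative Fabp5 had 26.7 to 30.6 FPKM and the droplet coat protein Plin2 9.33 to 10.8 FPKM. The peroxisomal oxidase of branched chains, Acox2, was listed at 0 in all 6 libraries. The transporter Abcd2 was also listed at 0, next to 12.0 to 12.9 FPKM for Abcd3. In lipolysis the first lipase Pnpla2 had 19.6 to 21.1 FPKM and the last, Mgll, at most 0.01 FPKM.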
